A study of Mus musculus with 4 samples.

Results

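The genes described here are 10 transcripts of the ATF4 stress response in mouse embryonic stem cells, measured by RNA-seq in control cells and in cells deleted for the chromatin remodeler Chd1. They are the transcription factors Atf4, Atf5 and Ddit3, the transcriptional co-regulator Nupr1 and the pseudokinase gene Trib3. The others are the enzyme genes Chac1, Asns and Pck2 and the mTORC1 inhibitors Sesn2 and Ddit4. Members were taken by symbol, as ATF4 and its stress targets other than tRNA synthetases and amino acid transporters. They were chosen with their Chd1-null to control ratios already known, Nupr1 and Chac1 for low ratios in both sets. All values of this contrast for the 10 genes are therefore descriptions, and none is given a test. All 10 were found as 1 locus in each set, among 11728 genes named once in both sets, and all 10 were among the 10261 genes with a mean of at least 1 FPKM that were tested. FPKM is the fragment number scaled to transcript length and depth, so it allows levels to be compared between genes.

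The cells of every group carried the tamoxifen-inducible Cre of the Rosa26CreER allele with 1 floxed and 1 null allele of Chd1. Control cells received ethanol and so kept the floxed allele as their 1 functional copy of Chd1. Chd1-null cells received 1 µM tamoxifen, both for 48 to 72 h, and all were then expanded for 3 to 5 passages in serum with LIF. Per the labels' protocols 2 independently derived lines were used, viable cells were counted so that equal numbers gave RNA, and ERCC RNA was added. The 4 libraries are split into sets 1 and 2, of 1 control library and its Chd1-null partner. Which line gave which set is not in the labels.

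ATF4 is a basic leucine zipper (bZIP) transcription factor whose protein is made when eIF2, the factor that brings initiator tRNA to the ribosome, is phosphorylated by a stress-sensing kinase. Short upstream reading frames in the Atf4 and Atf5 transcripts delay translation of the main frame until that happens, so the mRNA level does not report the protein level. ATF4 pairs with C/EBP factors on a composite site called CARE (C/EBP-ATF response element) and turns on genes for amino acid supply, redox balance and, in prolonged stress, cell death. Embryonic stem cells divide rapidly and have a high demand for amino acids.

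The DNA letters bear on what ATF4 can bind, so the promoter windows of the members are shown first, for the members whose window held the core of the CARE site. Windows came from RefSeq (build GRCm38.p6) and ran from 250 bases before to 50 bases after each annotated start. All 10 members had a window, and Atf5 had 2. The letters TGATGNAA were searched on both strands, and 5 of the 10 members held a match, each of them once. Sequences run 5′ to 3′ on the strand of the gene, with the match in capitals. Nupr1 lies at chr7:126625527-126625626 (minus strand), Chac1 at chr2:119351003-119351102 (plus), Asns at chr6:7693210-7693278 (minus), Pck2 at chr14:55540117-55540216 (plus) and Trib3 at chr2:152344028-152344057 (minus).

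Nupr1: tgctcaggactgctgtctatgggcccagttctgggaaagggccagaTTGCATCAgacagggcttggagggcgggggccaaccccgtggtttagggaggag

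Chac1: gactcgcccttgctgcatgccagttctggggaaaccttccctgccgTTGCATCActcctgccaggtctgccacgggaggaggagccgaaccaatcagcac

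Asns: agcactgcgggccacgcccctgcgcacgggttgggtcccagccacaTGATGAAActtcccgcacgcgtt

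Pck2: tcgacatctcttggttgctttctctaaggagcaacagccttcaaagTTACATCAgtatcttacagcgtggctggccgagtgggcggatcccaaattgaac

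Trib3: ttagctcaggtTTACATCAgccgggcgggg

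Nupr1 and Chac1 held the same 8 letters, TGATGCAA on the opposite strand, at positions -110 to -103 from the start of transcription in Nupr1 and -193 to -186 in Chac1. Pck2 and Trib3 shared the variant TGATGTAA, also on the opposite strand, at -103 to -96 in Pck2 and at 15 to 22, past the start, in Trib3. The transcribed part of the Trib3 window was the only one not found in the GENCODE transcripts of its gene, so that start rests on RefSeq. Asns alone carried the match on its own strand, at -23 to -16. Atf4, Atf5, Ddit3, Sesn2 and Ddit4 held no match within their windows, which says nothing of sequence outside them. Of all 32851 windows 3.97% held a match. The second motif searched, the CRE palindrome TGACGTCA that binds CREB and ATF proteins, was in no member's window and in 1.79% of all windows.

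**Figure D1:**
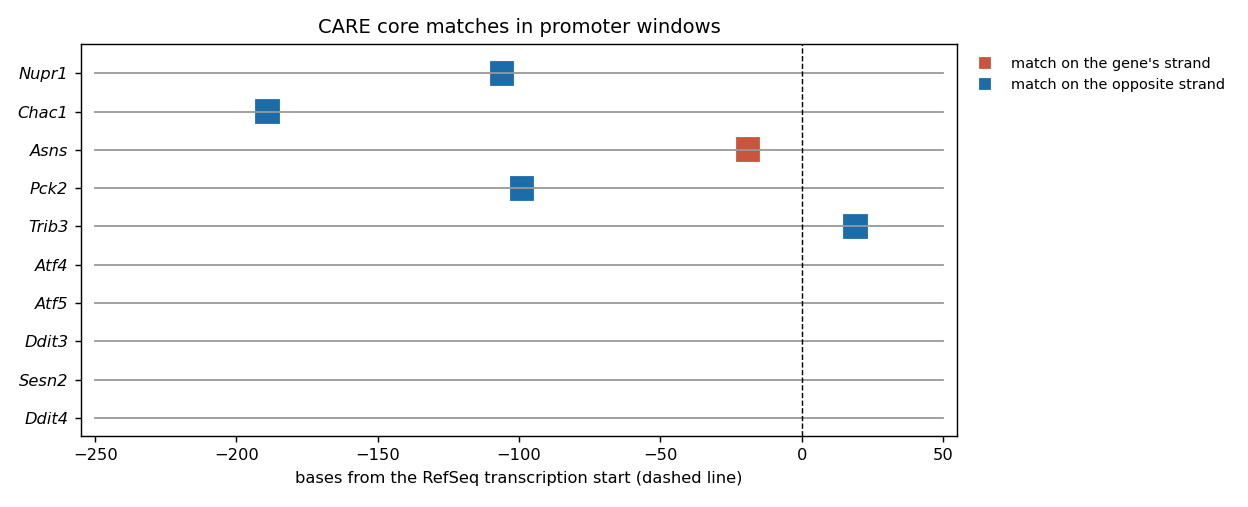
Position of CARE core matches (squares) along the promoter window of each member, in bases from the RefSeq start of transcription (dashed line). Of the 10 members 5 hold a match, 4 of them on the strand opposite to the gene.

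Most transcripts were lower in Chd1-null cells, so each member is given on the deposited scale and against the median gene. The median log2 ratio of Chd1-null over control was -0.46 in set 1 and -0.33 in set 2, on log2(FPKM + 0.1). Chd1 itself stood at 20.7% of control in set 1 and 47.7% in set 2 (limma adjusted p = 1.8e-08). The files give 1 value for the whole gene, so deleted and undeleted exons cannot be told apart. All 10 stem cell markers listed, such as Pou5f1 and Nanog, were present in every library. Their summed levels were 2909 and 2159 FPKM in control and Chd1-null cells of set 1, and 3621 and 2037 in set 2. Dppa5a was the highest of them, with a mean of 1412 FPKM. Fibroblast markers summed to 3.18 to 8.81 FPKM over the 6 of 10 named in both sets, and primitive endoderm markers to 11.7 to 26.7 over 4 of 10. Neural markers summed to 28.5 to 49.5 over 6 of 10. Trophectoderm markers, mainly the keratins Krt8 and Krt18, summed to 329 and 171 in control and Chd1-null cells of set 1, and to 63.9 and 40.8 in set 2. Their part in the values below was not tested. In such bulk samples fewer cells with a transcript and less RNA per cell cannot be told apart. Levels set side by side across the sets carry a further limit, since values were made per set and their scaling is unknown. How many of all genes had both Chd1-null libraries below both controls was not counted. Where a member is said to separate in this way, nothing is read from it. Control libraries summed to 584520 FPKM in set 1 and 719549 in set 2.

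Atf4 was the most abundant member. Controls gave 385 FPKM (set 1) and 579 (set 2), and Chd1-null cells 305 and 273. Both Chd1-null libraries lay below both controls. The size differed, since Chd1-null cells kept 79.2% of control in set 1 and 47.1% in set 2. Its log2 ratio minus that of the median gene, called the relative log2 value here, was 0.12 in set 1 and -0.76 in set 2. The mean relative log2 value of -0.32 had an SD of 0.62 (n = 2 sets).

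Atf5, a bZIP factor related to ATF4 and likewise controlled at translation, was the only member with higher values in Chd1-null cells of both sets. Its levels were low, at 4.36 and 4.65 FPKM in control and Chd1-null cells of set 1 and 2.84 and 3.10 in set 2. Chd1-null values were 1.07 and 1.09 times control. These steps were smaller than the 1.53-fold difference between the controls of the sets. Relative log2 values were 0.55 and 0.45, and 91.6% and 88.8% of all genes had lower ratios than Atf5.

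Ddit3, which encodes CHOP, a C/EBP family protein tied to cell death in lasting stress, was the least abundant member. Controls gave 2.41 FPKM (set 1) and 0.642 (set 2), and Chd1-null cells 1.10 and 1.05. The Chd1-null libraries of both sets were nearly level with each other, and the controls differed 3.75-fold. The log2 ratios were thus -1.07 and 0.63. At these levels, with read depth unknown, the 4 values give Ddit3 no common direction.

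Nupr1, a small stress-induced chromatin protein that acts as a co-regulator of transcription, had the lowest ratios of the group. The control libraries held 10.2 FPKM (set 1) and 9.76 (set 2), and the Chd1-null libraries 1.49 and 2.95. The 2 controls were almost equal, and both Chd1-null libraries were far below them. Chd1-null cells kept 14.5% of control in set 1 and 30.2% in set 2. Only 0.107% of all tested genes had a lower ratio in set 1, and 0.741% in set 2. The log2 ratio was -2.70 and -1.69, and relative to the median -2.24 and -1.36 (mean -1.80, SD 0.62, n = 2).

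Trib3 encodes a pseudokinase that is induced by ATF4 and CHOP and in turn dampens their activity. Its controls reached 16.6 FPKM (set 1) and 15.1 (set 2), and its Chd1-null libraries 11.3 and 7.70. Both Chd1-null values were below both controls. In set 1 Trib3 was close to the median gene, with a relative log2 value of -0.09, and in set 2 it was at -0.63.

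**Figure D2:**
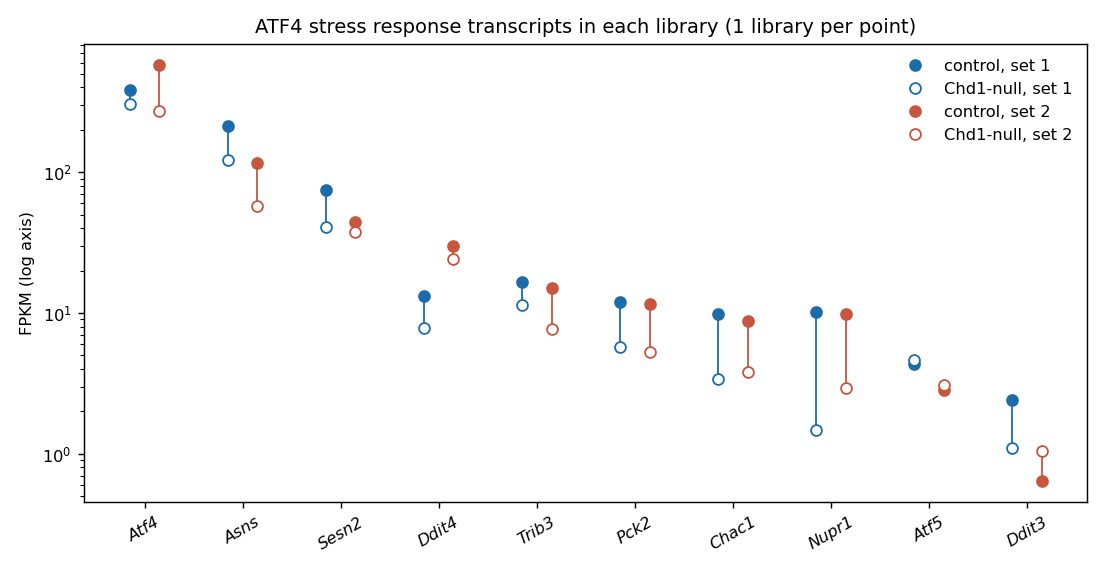
FPKM of each member in the 4 libraries on a log axis, ordered by mean level, with filled points for control, open points for Chd1-null and a line joining the libraries of a set. Nupr1 spans from 10.2 to 1.49 FPKM in set 1, and Ddit3 moves in opposite directions in the sets.

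Chac1 encodes an enzyme that breaks down glutathione and is among the known targets of ATF4. The control libraries had 9.84 FPKM (set 1) and 8.79 (set 2), the Chd1-null libraries 3.39 and 3.81. As for Nupr1, the controls were alike and well apart from the Chd1-null libraries. Chd1-null cells kept 34.4% and 43.3% of control. Relative to the median, the log2 values were -1.05 and -0.86 (mean -0.95, SD 0.14, n = 2), and 4.65% and 2.92% of all genes had lower ratios.

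Asns makes asparagine from aspartate and glutamine, and its promoter site is a well-studied amino acid response element. Levels in controls were 212 FPKM (set 1) and 116.5 (set 2), and in Chd1-null cells 121 and 57.1. The groups overlapped across sets, because Chd1-null 1 exceeded control 2. Within each set the Chd1-null library was lower, at 57.2% and 49.0% of control. Relative log2 values were -0.34 and -0.70.

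Pck2 encodes the mitochondrial phosphoenolpyruvate carboxykinase, which links the tricarboxylic acid cycle to serine and glycerol synthesis. Its 2 controls had 11.9 and 11.6 FPKM, and its Chd1-null libraries 5.73 and 5.33. The controls were alike and so were the Chd1-null libraries. The shares kept were 48.0% and 45.8%, and the log2 ratios of -1.05 and -1.11 differed by 0.07, against a median difference between sets of 0.39 over all tested genes. Only Atf5, with 0.03, differed less among members.

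The last 2 members restrain mTORC1, the kinase complex that drives growth when nutrients suffice. Sestrin 2, encoded by Sesn2, senses leucine and acts on the GATOR complexes. Sesn2 had 74.8 (set 1) and 44.6 FPKM (set 2) in controls, against 41.1 and 37.7 in Chd1-null cells. Both Chd1-null libraries lay below both controls, though control 2 was only a little above Chd1-null 1. Its Chd1-null cells kept 54.9% of control in set 1 and 84.5% in set 2, so that relative log2 values were -0.40 and 0.09. REDD1, encoded by Ddit4, acts through the TSC complex. Ddit4 had 13.2 (set 1) and 30.1 FPKM (set 2) in controls, against 7.88 and 24.0 in Chd1-null cells. The sets lay further apart than the groups, with control 2 at 2.28 times control 1. Its relative log2 value was -0.28 in set 1 and 0.01 in set 2.

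As a group, 8 of the 10 members were lower in both sets, 1 was higher in both and 1 went opposite ways. This share is printed beside the 72.4% of all 10261 genes that were lower in both sets, and the 1 higher member beside 2.81% of all genes. Nothing is read from these shares because the contrast chose the members. The direction depended on the scale. With each library divided by its summed FPKM, Sesn2 and Ddit4 were higher in set 2 (log2 0.21 and 0.13), which left 6 members lower in both sets, where 24.6% of all genes were. That scaling put the median gene at log2 -0.16 in set 1 and 0.11 in set 2. A log2 ratio of -1 or lower in both sets was found for Nupr1, Chac1 and Pck2, where 1.84% of all genes had it. Below the median of both sets lay Nupr1, Chac1, Asns, Pck2 and Trib3, or 5 of 10, where 24.6% of all genes did so. Above both medians lay Atf5 alone, where 24.6% of all genes did so. Nupr1 and Chac1 had the lowest ratios of the members in both sets, whereas Atf4, Ddit3, Sesn2 and Ddit4 changed sides. The median relative log2 value over the members was -0.37 in set 1 and -0.67 in set 2, against 0 for all genes by construction. The median difference between sets was 0.42 for the members and 0.39 for all genes.

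The 5 members below both medians were the same 5 that held a CARE core match, a split noticed after the values were seen. Nupr1 and Chac1, which held a match, had been chosen for low ratios in both sets, so the split was partly set by that choice. The split was not exact under every setting. Ddit4, without a match, joined the 5 with a pseudocount of 1 and with no filter on low values. Atf4, also without one, joined them with the level trend removed. Ddit4 stood at only 0.01 in set 2, and Trib3 at -0.09 in set 1. Relative log2 values of the 5 members with a match spanned -2.24 to -0.09 in set 1 and -1.36 to -0.63 in set 2. The 5 members without a match spanned -0.61 to 0.55 and -0.76 to 0.96, so the ranges overlapped in both sets. Of 8272 other tested genes with a window, 206 (2.49%) held the CARE core, and 26.2% of those lay below both medians, against 24.3% of the 8066 without it. The median relative log2 value of the 206 genes was -0.05 in set 1 and 0.01 in set 2. A window was found for 80.7% of the 10261 tested genes.

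**Figure D3:**
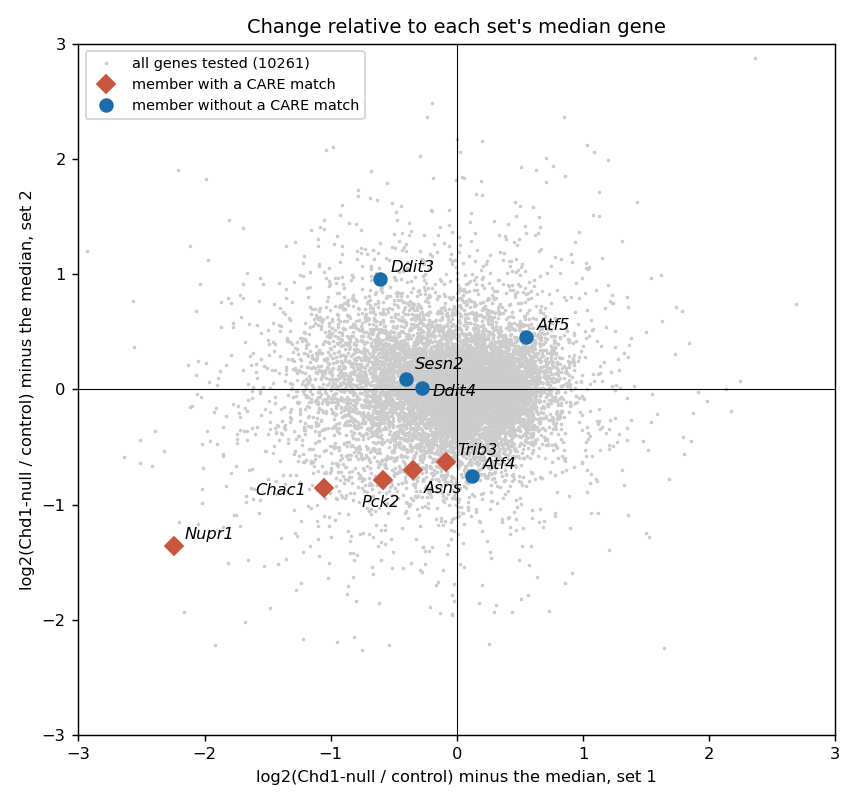
Log2 ratio of Chd1-null over control minus the median of all genes, set 1 on the x axis and set 2 on the y axis, for 10261 genes (grey, with 9 outside the axes) and the 10 members. The 5 members with a CARE core match (diamonds) lie below 0 on both axes, and no member without one does, though Ddit4 is at 0.01 in set 2. Of the members with a match, Nupr1 and Chac1 had been chosen for low ratios in both sets.

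In set 1 the change depended on expression level, with lower ratios for genes of low level, so the members were also compared with a trend line drawn through all genes. This comparison was chosen after seeing the data. Nupr1 was far below the trend, at log2 -2.06 in set 1 and -1.44 in set 2, and Chac1 lay at -0.93 and -0.90. Asns, a gene of high level, moved further down in set 1, from a relative value of -0.34 to -0.60, with -0.66 in set 2. Atf4 changed sides in set 1 and lay below the trend in both sets (-0.14 and -0.68), which made 6 of 10 members, where 26.6% of all genes did so. In set 1 Ddit3, at -0.10, was near the trend of genes as low as itself.

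**Figure D4:**
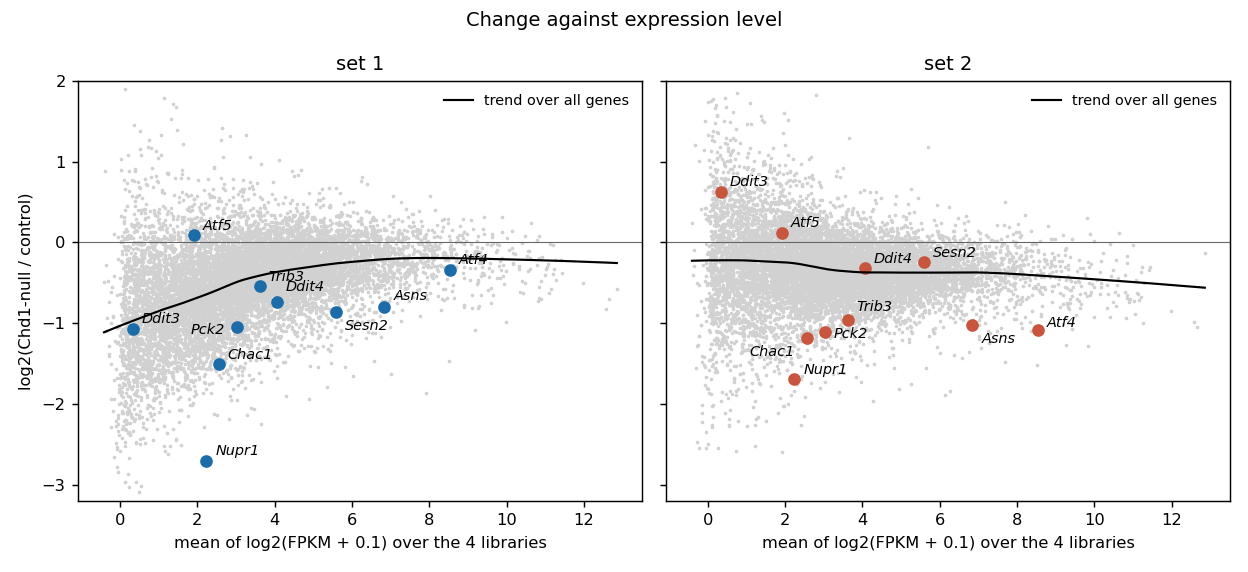
Log2 ratio of Chd1-null over control against mean log2 level in set 1 (left) and set 2 (right), with all tested genes in grey, members in colour and the trend over all genes as a line. The trend rises with level in set 1, and Nupr1 lies below it in both sets.

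The order of levels in controls was the same at the top in both sets, Atf4, then Asns, then Sesn2, and Ddit3 was the lowest in both. Atf4 exceeded 98.2% of tested genes in control 1 and 98.8% in control 2, and Asns 96.6% and 93.9%. Nupr1, Chac1 and Pck2 lay near the middle of all genes and next to each other, at 10.2, 9.84 and 11.9 FPKM in control 1 and 9.76, 8.79 and 11.6 in control 2. Both Pck2 values lay above all those of Nupr1 and Chac1, and Nupr1 and Chac1 overlapped across the sets. Ddit4 and Trib3 swapped places, as Ddit4 was at 13.2 and Trib3 at 16.6 in control 1 but at 30.1 and 15.1 in control 2. Nupr1 lay above Atf5 in both controls and below it in both Chd1-null libraries.

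Neighbouring genes were read from the RefSeq order, as the nearest gene on each side of each member whose RefSeq symbol matched a tested gene. Synonyms were not used here, so a tested gene with another RefSeq symbol was passed over, and a nearer tested gene may be missing. Of these 20 genes 5 lay below both medians, where 24.6% of all genes did. Beside Nupr1, Cln3 had log2 ratios of -0.37 and -0.23 and Slx1b of -0.60 and -0.41, both close to the median gene. Beside Chac1, Vps18 (-0.68 and -0.36) and Ino80 (-0.90 and -0.52) were lower than the median but less so than Chac1. Beside Pck2, Dcaf11 had ratios of -1.01 and -0.61 and Dhrs4 of 0.32 and -0.65.

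The genes most like Nupr1 and Chac1 over the 4 libraries were sought among 6853 genes with a mean of at least 5 FPKM, by Euclidean distance of log2 values centred on each gene's own mean. Nearest to Nupr1 were Fam211a at a distance of 0.72, Chd1 at 0.72 and the autophagy gene Map1lc3a at 0.78. None was as low as Nupr1. Fam211a kept 27.9% of control in set 1 and 42.8% in set 2. Chac1 had much closer company. Fgf17, a growth factor gene, lay at 0.16, the basement membrane gene Nid1 at 0.17 and the phospholipase gene Pla2g6 at 0.19. Fgf17 had 9.84 and 9.36 FPKM in controls and 3.51 and 4.45 in Chd1-null cells, close to the values of Chac1. The likeness was measured over 4 libraries only.

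Other genes of the pathway were taken from 7 lists grouped by function, and 114 of their genes were tested with limma on all 10261 genes, with Benjamini-Hochberg adjustment. On the deposited scale 26 of the 114 fell and 0 rose, where 9.80% of all genes fell and 0.0682% rose. These shares were not matched for level, and the limma SE differed with level. It was 0.17 for Gars at a mean of 244 FPKM and 0.45 for Syvn1 at 3.48. Gars was called with a mean relative log2 value of -0.11, close to the median gene. Relative to the median 0 of 114 passed in limma in either direction (lowest adjusted p = 0.531, and 5 at an unadjusted p under 0.05), where 0.214% of all genes fell and 0.146% rose. Without the set as a block, and without the trend of variance on level, 0 of the 114 genes fell in limma (27 and 26 at an unadjusted p under 0.05). After dividing libraries by their summed FPKM 0 fell and 1 rose in limma, the chaperone gene Calr (log2 change 0.54, adjusted p = 0.0268, and 10 genes at an unadjusted p under 0.05). With the filter raised to 5 FPKM, 98 of these genes were tested and 6 fell (Xbp1, Gpt2, Aldh18a1, Psph, Gadd45a and Ppp1r15b). In the lists that follow, genes that fell are calls on the deposited scale, where the median gene was lower too.

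Upstream of ATF4, 5 of 18 genes for the eIF2 kinases, eIF2, its exchange factor eIF2B and its phosphatase fell. Over all genes 9.80% fell. Of the 5, Ppp1r15b, the constitutive partner that directs the phosphatase to eIF2, fell by 0.80 on the log2 scale (limma SE 0.21, adjusted p = 0.0052). It stood at 39.2 and 19.5 FPKM in set 1 and 24.1 and 15.9 in set 2. The catalytic subunit gene Ppp1cb fell by 0.66, the eIF2 subunit gene Eif2s2 by 0.62, and the eIF2B subunit genes Eif2b4 and Eif2b3 by 0.70 and 0.56. The stress-sensing kinase genes that were tested, Eif2ak1, Eif2ak3 and Eif2ak4, did not pass. The list's median relative log2 value was 0.09 in set 1 and -0.13 in set 2, near the median gene in both.

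Among bZIP factors that can pair with ATF4 or act beside it, 1 of 14 fell, where 9.80% of all genes did. The factor was Nfe2l2, which encodes the oxidative stress factor NRF2, at 30.8 and 18.9 FPKM in set 1 and 35.7 and 22.5 in set 2 (fell by 0.68, limma adjusted p = 0.0167). The median relative values of this list were -0.04 and -0.03.

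Of 24 ATF4 targets in transport, amino acid and one-carbon metabolism 8 fell, where 9.80% of all genes did. All 24 were lower in both sets, where 72.4% of all genes were. Gpt2, an alanine aminotransferase, fell by 0.92 (limma SE 0.24, adjusted p = 0.0054). Its controls had 17.9 and 19.7 FPKM and its Chd1-null libraries 9.96 and 9.80. Gadd45a, a growth arrest gene, fell by 0.85, Aldh18a1, the first enzyme of proline synthesis, by 0.81, and Psph, the last enzyme of serine synthesis, by 0.80. The mitochondrial folate enzymes Mthfd2 and Shmt2 fell by 0.72 and 0.58, the autophagy gene Map1lc3b by 0.66 and the amino acid transporter gene Slc38a2 by 0.61. Below both medians lay 14 of the 24, against 38 of all 114 pathway genes, these 14 included, and 24.6% of all genes. The list's median relative values were -0.13 and -0.15. Nothing is read from these shares, because the lists were chosen with earlier results of these data known.

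Of 12 tRNA synthetases 7 fell (Wars, Iars, Cars, Aars, Nars, Yars and Gars, by 0.51 to 0.64), where 9.80% of all genes did. The 12 synthetases kept close to the median gene in set 1, with a median relative value of 0.03, and lay below it in set 2, at -0.22. Among the 8 synthetases with a promoter window, 5 held the CARE core (Aars, Gars, Iars, Tars and Yars), and 2 of these 5 were below both medians, as were 0 of the 3 without it. Among the other ATF4 targets 2 of 3 genes with the core and 11 of 16 without it lay below both medians. Over all 7 lists these counts were 5 of 12 with the core and 26 of 81 without it.

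In the ATF6 and IRE1 arms of the unfolded protein response 3 of 21 genes fell, where 9.80% of all genes did. Xbp1, the factor made by IRE1 splicing, fell by 1.00 (limma SE 0.23, adjusted p = 0.0012). Herpud1, a degradation factor that ATF4 also induces, fell by 0.75 (limma adjusted p = 0.0317). Syvn1, a ubiquitin ligase, fell by 1.30 (limma adjusted p = 0.0414). Syvn1 rested on set 1, with log2 ratios of -2.51 and -0.08, and with a pseudocount of 1 it did not pass. Above both medians lay 8 of the 21 genes, and 3 lay below both, where 24.6% of all genes lay above both and 24.6% below both. The list medians were 0.04 and 0.07.

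Of 7 tested paralogs of the members 0 passed in limma on either scale (at an unadjusted p under 0.05, 1 on the deposited scale and 0 relative to the median). Sesn1, the sestrin paralog, stood at 8.22 and 5.47 FPKM in set 1 and 11.6 and 5.74 in set 2 (limma adjusted p = 0.0625). Trib1, at log2 ratios of -0.40 and -0.29, and Asnsd1, at -0.03 and -0.25, were near or above the median gene. Whether members and paralogs differ was not tested.

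Among 18 genes that act with sestrins and REDD1 upstream of mTORC1, 2 fell, where 9.80% of all genes did. The 2 were Tbc1d7, a subunit of the TSC complex (by 0.81, limma adjusted p = 0.0172), and Nprl2, a subunit of the GATOR1 complex (by 0.79, adjusted p = 0.0471). Nprl2 did not pass with a pseudocount of 1. The list medians relative to all genes were -0.13 and -0.02.

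**Figure D5:**
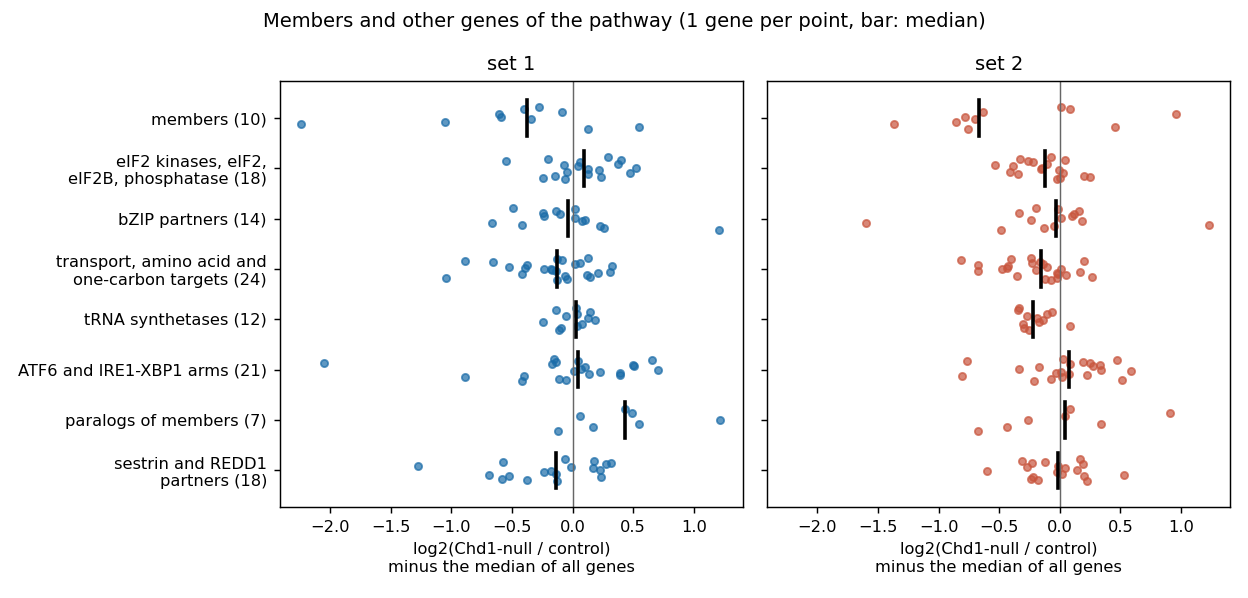
Log2 ratio of Chd1-null over control minus the median of all genes for the members and for 7 lists of pathway genes, with 1 point per gene, a bar at each list's median and the number of tested genes in brackets. The member medians are -0.37 in set 1 and -0.67 in set 2.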

How the data were processed

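RNA-seq values were deposited as 1 table per set, with a control and a Chd1-null column. Cufflinks 2.2.0 and Cuffdiff are listed with TopHat, TopHat2 2.0.10 and mm9 in the submitters' processing notes, so the deposited values were taken as FPKM. The headers state no unit. How the authors scaled the FPKM, and whether ERCC RNA was used, is not given in the sources used here. The deposited ratio columns equalled the quotient of the value columns to within 4.97e-06. Library values summed to between 466994 and 719549 FPKM. Read depth is unknown. The lowest value of each library was 0.100 FPKM, so the deposited values include no gene below that level.

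Both tables were joined on gene symbols. Unnamed loci, loci that merge genes and repeated symbols were left out. The test was limma 3.58.1 in R 4.3.3 on log2(FPKM + 0.1), two-sided, over the 10261 genes with a mean of at least 1 FPKM. Set was a block because values were made per set and the protocol names 2 lines. Libraries of a set deviated together from their group means (r = 0.483 across genes). The fit has 1 residual degree of freedom and prior degrees of freedom of Inf, so p-values use a spread shared by genes of similar level. An exact sign-flip test of 2 pairs cannot go below 0.5. p-values measure only the spread between these libraries, which may be technical. The relative comparison subtracted each set's median log2 ratio. The test was run on simulated data for the relative comparison only, with a spread set by level alone. That run cannot show how the test treats genes whose spread differs from others of their level.

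The members and lists were chosen with earlier results of these data known. Beside Chd1 and the members, the genes named are those called in a list or, where none was, up to 3 with the largest relative change of one sign in both sets among those averaging 5 FPKM or more, and the 3 genes nearest to Nupr1 and to Chac1. Neighbouring genes and genes named as not passing were chosen after their values were seen. Promoter windows were matched by symbol and unambiguous synonym.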

Additional observations from a re-analysis of the deposited data

Results flagged for a closer look

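Several log2 ratios of Chd1-null over control had opposite signs in the sets, and with 1 library of each kind per set the differences were not tested. On the deposited scale this held for Ddit3, with -1.07 in set 1 and 0.63 in set 2, a difference of 1.70. Relative to the medians Ddit3 differed by 1.56 (-0.61 and 0.96). Atf4 lay above the median in set 1 and below it in set 2 (0.12 and -0.76, a difference of -0.88). Sesn2 (-0.40 and 0.09) differed by 0.49, and Ddit4 (-0.28 and 0.01) by 0.29.

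Among the other pathway genes named here, Syvn1 differed by 2.30 (-2.05 and 0.25 relative to the medians). Herpud1 differed by -0.81, the eIF2B subunit gene Eif2b3 by -0.43, and the synthetase genes Gars and Yars by -0.38 and -0.37, all 4 on the upper side of the median in set 1 and on the lower side in set 2.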

How the results depend on the processing

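Counts of calls changed with the variance model, the filter and the scaling, and the cause was not tested. Against 1006 genes that fell and 7 that rose on the deposited scale, and 22 and 15 relative to the medians, a mean of at least 5 FPKM left 225 and 2, and 3 and 2, and the pathway genes that fell went from 26 to 6. Each library divided by its own total gave 40 that fell and 33 that rose, with 0 and 1 of the pathway genes. With no replicate block, so without the pairing by set, and again in eBayes without a trend on level, 0 genes passed in limma on either scale. On the deposited scale the lowest adjusted p in limma was 0.461 without the block and 0.288 without the trend. There 1043 and 1718 genes were at an unadjusted p under 0.05. Relative to the medians 154 and 614 genes were, and the lowest adjusted p in limma was 0.0731, without the trend. A pseudocount of 1 left 4 that rose, and the level trend removed in each set left 6 that rose relative to it. Read depth is unknown, which limits what can be said of Ddit3 and Atf5.

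Nupr1, Chac1, Asns, Pck2 and Trib3 stayed below both medians under each setting that gave values for both sets. Ddit4 joined them with a pseudocount of 1 and with no filter on low values, and Atf4 with the level trend removed. A single set put 6 to 8 members below its median. Across these settings the mean relative log2 value of Nupr1 ran from -1.84 to -1.46 and that of Chac1 from -0.99 to -0.82. Of the pathway genes named, the calls lost with a pseudocount of 1 and with no filter were those of Syvn1 and Nprl2. A mean of at least 5 FPKM cost far more, and only Xbp1, Gpt2, Aldh18a1, Psph, Gadd45a and Ppp1r15b kept their calls. Under division by library totals Ddit3 had a mean log2 ratio of 0.12 against -0.22 as deposited.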
